A study of Homo sapiens with 72 samples.

Results

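The genes described here are 9 that carry nutrient signals to the kinase complex mTORC1: SESN1, SESN2, SESN3, DDIT4, RRAGC, RRAGD, FLCN, FNIP1 and FNIP2. They were found by symbol among the 44659 gene names of a count table, and all 9 had a row. The table came from 72 QuantSeq libraries, which read the 3′ ends of polyadenylated RNA, made from cytoplasmic RNA of A375, an established line of human melanoma cells. In one experiment, cells received for 42 h a pool of siRNAs against CTU2 (siCTU2), which codes for a subunit of an enzyme that thiolates tRNAs, or the control siRNA siGL2. In the other, cells were kept for 18 h either without glutamine (mQ) or in its control medium (pQ). Each of these 4 conditions was sampled at 0, 3 and 5 h of treatment with 25 µM triptolide, which stops transcription (T arm), or with triptolide plus 100 µg/ml cycloheximide, which stops translation (TCHX arm), with 3 replicates in each of the 24 groups. The knockdown lowers CTU2 without deleting the gene, a single cell line was used, and all later time points carry triptolide. The labels do not say whether replicates were separate cultures, so the p-values measure the spread between these libraries, which may be technical.

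mTORC1 drives growth when amino acids are plentiful, and it is switched on at the surface of the lysosome. Rag GTPases bring it there: RRAGC or RRAGD pairs with RRAGA or RRAGB. FLCN, bound to FNIP1 or FNIP2, acts on the nucleotide state of RRAGC and RRAGD. Sestrins (SESN1, SESN2, SESN3) bind the GATOR2 complex and restrain mTORC1 when leucine or other nutrients are scarce. DDIT4, also called REDD1, is a short-lived stress protein that restrains mTORC1 through the TSC complex. SESN2 and DDIT4 are known targets of the amino acid stress factor ATF4, and RRAGC, RRAGD, FLCN and FNIP2 are known targets of the MITF/TFE factors that also control lysosome genes.

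In the GENCODE annotation of GRCh38, all 9 are protein-coding genes. The sestrin genes lie at chr6:108984309-109094846 (SESN1, minus strand), chr1:28259518-28282491 (SESN2, plus) and chr11:95165513-95232541 (SESN3, minus), and DDIT4 at chr10:72273919-72276036 (plus). RRAGC lies at chr1:38838198-38859772 and RRAGD at chr6:89364616-89412273, both on the minus strand. FLCN lies at chr17:17212212-17237188 and FNIP1 at chr5:131641714-131797017, both on the minus strand, and FNIP2 at chr4:158769026-158908050 on the plus strand. Because QuantSeq reads fall near the end of a transcript, other genes over the last 500 bases matter. SESN3 shares this stretch with LNCRNA-IUR and FNIP2 with C4orf45, both antisense, FNIP1 shares it with 1 gene of the same strand, and FLCN with antisense MPRIP and 1 gene of the same strand. The strand setting of the authors' counting is not given in the sources used here, so the counts of SESN3, FNIP2 and FLCN are uncertain to that extent. The overlaps on the same strand, in FNIP1 and FLCN, leave counts uncertain under any setting. The authors state that they used NCBI's annotation, and whether it holds these overlaps was not tested.

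The promoters of 4 members are printed below because the largest changes at 0 h, or the only matches to the motifs searched, were found in these genes. RefSeq sequences (GRCh38.p14, 250 bases before to 50 after the start) were found for 8 of the 9 members, all but RRAGD. DDIT4 (chr10:72273674-72273973, plus strand) and SESN2 (chr1:28259268-28259567, plus) were the members with the highest fold in mQ. RRAGC (chr1:38859723-38860022, minus) had the largest fall in siCTU2, and FNIP1 (chr5:131796968-131797267, minus) was the member that rose there. Each is read 5′ to 3′ along the gene, and capitals mark CACGTG.
DDIT4: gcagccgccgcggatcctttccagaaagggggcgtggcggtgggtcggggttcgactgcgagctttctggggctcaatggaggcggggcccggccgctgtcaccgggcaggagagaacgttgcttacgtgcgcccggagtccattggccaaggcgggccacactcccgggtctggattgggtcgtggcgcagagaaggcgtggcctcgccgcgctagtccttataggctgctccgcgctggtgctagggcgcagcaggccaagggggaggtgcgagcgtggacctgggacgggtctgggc
SESN2: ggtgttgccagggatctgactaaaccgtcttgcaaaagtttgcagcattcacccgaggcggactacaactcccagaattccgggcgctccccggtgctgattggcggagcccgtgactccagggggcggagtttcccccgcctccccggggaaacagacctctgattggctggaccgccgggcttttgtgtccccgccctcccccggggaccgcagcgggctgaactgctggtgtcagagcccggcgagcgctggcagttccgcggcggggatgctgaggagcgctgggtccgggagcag
RRAGC: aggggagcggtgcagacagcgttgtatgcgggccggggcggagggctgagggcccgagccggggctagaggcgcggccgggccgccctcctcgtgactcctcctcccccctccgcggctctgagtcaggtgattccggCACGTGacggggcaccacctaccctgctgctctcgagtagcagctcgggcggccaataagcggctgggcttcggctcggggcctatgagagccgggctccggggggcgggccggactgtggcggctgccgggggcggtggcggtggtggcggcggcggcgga
FNIP1: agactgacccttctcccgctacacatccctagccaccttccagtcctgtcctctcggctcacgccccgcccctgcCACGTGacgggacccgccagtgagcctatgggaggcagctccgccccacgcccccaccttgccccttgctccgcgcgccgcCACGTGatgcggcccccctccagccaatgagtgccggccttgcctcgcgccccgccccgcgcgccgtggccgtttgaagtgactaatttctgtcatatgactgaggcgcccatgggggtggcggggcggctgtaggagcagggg
CACGTG, the E-box core, reads the same on both strands. It began at -112 from the start in RRAGC and at -175 and -94 in FNIP1, and it was in no window of the other 6 members found. Of 35116 RefSeq promoters of 300 bases, 7.26% held it. TGATGNAA, the form of amino acid response elements (3.62% of promoters), and GTAAACA, the FOXO form (3.42%), were searched on both strands, and neither was in any member's window. No searched motif overlapped another in these windows. A match here is a string of letters and not a measured binding site.

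Libraries held 5987692 to 15534331 counts, and levels are given as CPM, the usual scaling of counts by the library total. CTU2 had 1.76 ± 1.04 CPM (SD, n = 3) in siCTU2 and 22.45 ± 1.58 in siGL2 at 0 h in the T arm, a log2 fold change of -3.71 (SE 0.28, adjusted p = 9.16e-09 by edgeR's quasi-likelihood test). Melanocyte lineage markers were present, with SOX10 between 25.4 and 424 CPM over the libraries, but MLANA and TYR were near 0 (median 0.2 and 0.208 CPM). The summed level of the 10 lineage markers at 0 h was 942 to 1190 CPM in siCTU2 against 1330 to 1550 in siGL2, and 1060 to 1270 in mQ against 1260 to 1500 in pQ. MITF, 1 of the 10, carried much of these differences. It was at 125 ± 21.6 CPM in siCTU2 against 346 ± 41.1 in siGL2, and at 154 ± 32.0 in mQ against 357 ± 22.6 in pQ. At 0 h in the T arm, the 4 fibroblast markers summed to 2.35 to 8.94 CPM, the 3 endothelial markers to 0 to 2.02 CPM and the 4 blood markers to 0 to 0.571 CPM. The 5 epithelial markers summed to 109 to 179 CPM, nearly all of it KRT18 (median 145 CPM over all libraries), with EPCAM, KRT19 and CDH1 at a median of 0. In 3 libraries, replicate 3 of mQ T at 5 h, of pQ TCHX at 0 h and of siCTU2 TCHX at 5 h, 19896 to 20364 genes had counts, against 15507 to 17495 in the other 69. The same 3 libraries held the T cell marker CD3E at 31.1 to 32.6 CPM and the leukocyte marker PTPRC at 31.1 to 32.6 CPM, against at most 0.304 and 0.759 CPM elsewhere. The library labelled siCTU2 TCHX 5 h replicate 3 also had CTU2 at 10.4 CPM, against 0.203 and 0.168 in the other 2 of its group. In siGL2, CTU2 was at 17.5 to 29.4 CPM in the same arm and time. These libraries are in no contrast of the T arm at 0 h or of 3 h with 0 h. All 3 enter the estimate of spread in the fits over time of their condition, the choice of stable genes and the scaling by them. Fits over time and TDD values with libraries left out kept that scaling, so they are not wholly free of these libraries. Percentages left in the TCHX arm of pQ refer to a 0 h mean that includes the pQ library among them. Replicate 3 also stood apart in all 8 groups at 5 h. The chi-square of the counts over its degrees of freedom, near 1 for sampling noise alone, was 43.0 to 114.6 for pairs of libraries with replicate 3, against 6.87 to 33.2 between replicates 1 and 2, and 4.49 to 15.6 over all pairs at 3 h. What sets replicate 3 apart at 5 h was not tested. Calls that rest on 5 h libraries are given below without the 3 libraries or without replicate 3 at 5 h where they changed, and such fits of 5 h, of the TCHX arm and of the TDD index were added after the data were seen.

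The first comparison asked which members differed between siCTU2 and siGL2 before the transcription block, in the T arm at 0 h. RRAGC, RRAGD, FNIP2 and SESN3 fell and FNIP1 rose. Thus 5 of the 8 members tested passed an adjusted p of 0.05, while 36% of all 12292 genes tested passed in the same fit, 17.8% upward and 18.2% downward. The ninth member, SESN2, had too few counts to be tested. The median log2 fold change of the 8 members was -0.29, against 0.00 for all genes. In bulk RNA, fewer cells that express a gene and less RNA per cell cannot be told apart. The summed lineage markers were also lower in siCTU2, with MITF carrying much of the difference, which was not tested further.

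Both Rag genes were lower in every siCTU2 library than in any siGL2 library. RRAGC had 49.3, 53.0 and 57.5 CPM in siCTU2 and 116, 95.8 and 109 CPM in siGL2. These groups lay far apart, and the log2 fold change was -1.01 (SE 0.10, adjusted p = 2.5e-07 by edgeR), a 2.01-fold fall. RRAGD had 20.9, 21.3 and 25.4 CPM in siCTU2 and 40.4, 39.0 and 38.4 CPM in siGL2. It fell by 0.80 on the log2 scale (SE 0.13, adjusted p = 6.47e-05 by edgeR), again with no overlap.

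The FLCN partners moved in opposite directions. FNIP2 had 33.1, 36.1 and 41.8 CPM in siCTU2 and 56.3, 50.5 and 64.0 CPM in siGL2, a log2 fold change of -0.62 (SE 0.12, adjusted p = 0.000513 by edgeR). FNIP1 had 44.8, 53.7 and 51.4 CPM in siCTU2 and 35.3, 35.1 and 39.9 CPM in siGL2, a log2 fold change of 0.44 (SE 0.11, adjusted p = 0.00506 by edgeR). Neither pair of groups overlapped. FLCN itself was at 39.2 ± 2.98 and 38.1 ± 1.98 CPM (SD, n = 3 each), and its log2 fold change of 0.04 had a 95% interval of -0.18 to 0.26.

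Among the upstream inhibitors, SESN3 was the gene that fell. It had 12.4, 14.1 and 22.0 CPM in siCTU2 and 27.8, 24.5 and 34.7 CPM in siGL2. Replicate 3 was the highest library of both groups, the groups did not overlap, and the log2 fold change was -0.83 (SE 0.19, adjusted p = 0.0023 by edgeR). SESN1 was at 13.5 ± 0.345 CPM in siCTU2 and 10.5 ± 0.851 CPM in siGL2 (SD, n = 3), but its log2 fold change of 0.37 did not pass (adjusted p = 0.115 by edgeR). DDIT4 was at 52.5, 50.2 and 72.8 CPM in siCTU2 and 33.5, 41.9 and 59.6 CPM in siGL2, so that the groups overlapped, though siCTU2 was the higher in each of the 3 same-numbered pairs (log2 fold change 0.38, adjusted p = 0.0912 by edgeR). It passed without siGL2 replicate 3 (0.63, adjusted p = 0.00711), without siCTU2 replicate 2 (0.49, adjusted p = 0.0489) and with all genes kept (0.39, adjusted p = 0.00388 by edgeR). SESN2 had 0 counts in the 3 siCTU2 libraries and 1 in siGL2.

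The TCHX-arm libraries at 0 h are other libraries of the same conditions and replicate numbers, and the labels do not say whether they were separate cultures. The same 5 members passed there, against 37.2% of all genes. RRAGC had a log2 fold change of -0.98, SESN3 of -0.85, FNIP2 of -0.75, RRAGD of -0.72 and FNIP1 of 0.48. DDIT4 was at -0.02 in that arm.

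**Figure D1:**
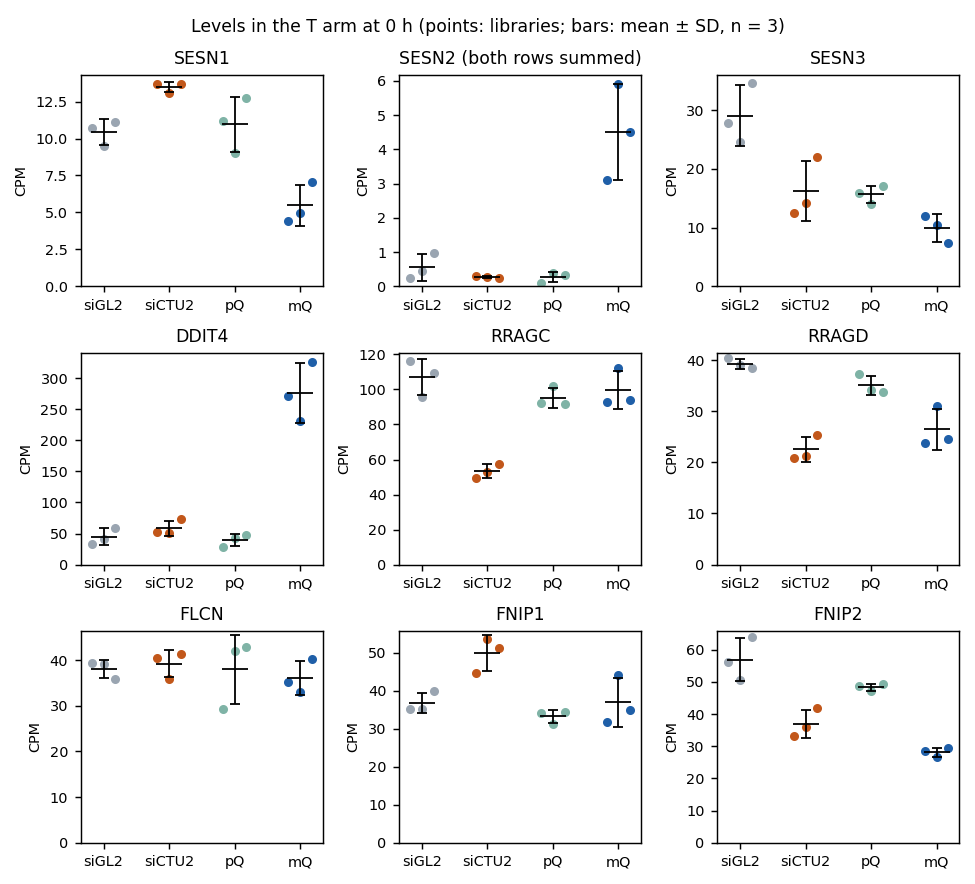
Levels of the 9 genes at 0 h in the T arm. The y axis is CPM, points are libraries, and horizontal bars with whiskers are the mean ± SD of 3 libraries; for SESN2 the 2 rows of the table are summed. RRAGC and RRAGD are lower in siCTU2 than in siGL2, and DDIT4 and SESN2 are high in mQ.

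The other parts of the pathway also changed at 0 h. In the list of Ragulator, the lysosomal scaffold of the Rags, and other Rag genes, 1 of 8 tested rose and 4 fell. LAMTOR2, a Ragulator subunit, was at 14.1 ± 1.73 CPM in siCTU2 and 52.4 ± 4.28 in siGL2, a log2 fold change of -1.89, and LAMTOR3, another subunit, was at -0.69. Of 15 genes of the GATOR complexes and KICSTOR, none rose and 2 fell, among them WDR24, a GATOR2 subunit (-0.74). Of 9 genes of the mTORC1 core and the TSC complex, none rose and 5 fell, with TBC1D7, a TSC subunit, and RHEB, the GTPase that activates mTORC1, each at -0.78. Among 8 mTORC1 substrates, 1 rose and 3 fell, with LARP1 at -0.69 and GRB10 at -0.65. The list of lysosome genes and their MITF/TFE regulators had 15 of 19 members tested, of which 2 rose and 4 fell. MITF had the largest change there, from 346 ± 41.1 CPM in siGL2 to 125 ± 21.6 in siCTU2 (log2 fold change -1.48), and GLA, a lysosomal galactosidase, was at -0.79. Among 8 transcription factors known to control some members, 4 rose and 1 fell: FOXO3 was at 0.83 and FOXO1 at -0.69. For the named genes the adjusted p lay between 4.07e-09 for LAMTOR2 and 0.0296 for WDR24 by edgeR. The lists' medians, in the order given, were -0.29, -0.14, -0.37, -0.02, -0.12 and 0.21, against 0.00 for all genes, of which 36% were called.

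The second comparison asked what 18 h without glutamine did to the members at 0 h. DDIT4 rose strongly, SESN1 and FNIP2 fell, and 5 tested members did not pass. This was 3 of 8 members, against 24.8% of 12374 genes tested, 12.5% upward and 12.4% downward. The members' median log2 fold change was -0.19, against 0.01 for all genes.

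DDIT4 had 271, 230 and 326 CPM in mQ and 28.8, 42.9 and 47.0 CPM in pQ. Every mQ library was far above every pQ library, and the log2 fold change was 2.85 (SE 0.18, adjusted p = 1.95e-06 by edgeR), a 7.21-fold rise. SESN2 was split by the table between its own row and a row named SESN2_1, an extra copy of the gene name. In the row SESN2, mQ had 5, 3 and 4 counts and the 3 pQ libraries had 0. With pQ set to a floor of 3 counts over the group, the ratio of mQ to pQ was 4.64, which leaves out counting error and is no lower bound. The exact Poisson intervals at 95% of this row, pooled over each group, were 0.226 to 0.763 CPM in mQ and 0 to 0.116 CPM in pQ. In the row SESN2_1, mQ had 20, 59 and 36 counts and pQ had 1, 4 and 4, and the log2 fold change was 3.86 (SE 0.56, adjusted p = 0.000803 by edgeR). Summed over both rows, SESN2 was at 3.09, 5.90 and 4.50 CPM in mQ and 0.107, 0.391 and 0.324 CPM in pQ, with no overlap. Pooled over 3 libraries, the exact Poisson interval at 95%, which covers counting error only, was 3.85 to 5.50 CPM in mQ and 0.129 to 0.536 CPM in pQ. When extra-copy rows were added to their genes throughout, a choice made after the data were seen, SESN2 passed with a log2 fold change of 4.00 and 4 members were called, against 24.8% of all genes.

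SESN1 moved the other way from SESN2. It had 4.46, 4.95 and 7.08 CPM in mQ and 11.2, 8.99 and 12.7 CPM in pQ, a log2 fold change of -0.94 (SE 0.25, adjusted p = 0.0185 by edgeR). The groups did not overlap, but the counts were low, 36 to 157 per library. Its call was lost without mQ replicate 1 (adjusted p = 0.0722), pQ replicate 1 (0.0613) or pQ replicate 3 (0.0761 by edgeR). SESN3 was at 9.96 ± 2.33 CPM in mQ and 15.7 ± 1.49 in pQ (SD, n = 3), and its log2 fold change of -0.60 missed the threshold (adjusted p = 0.0546 by edgeR). It passed with DESeq2 (adjusted p = 0.0481), with all genes kept (0.0389) or without mQ replicate 2 (0.0415).

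FNIP2 had 28.5, 26.6 and 29.3 CPM in mQ and 48.6, 47.1 and 49.3 CPM in pQ. The libraries of each group lay close together, and the log2 fold change was -0.73 (SE 0.12, adjusted p = 0.00179 by edgeR). FNIP1 was at 36.9 ± 6.36 and 33.3 ± 1.65 CPM, with a log2 fold change of 0.21 (95% interval -0.09 to 0.50). FLCN was at 36.1 ± 3.75 and 38.0 ± 7.60 CPM, with a log2 fold change of -0.02 (95% interval -0.34 to 0.30). RRAGC was at 99.6 (SD 10.98) and 95.2 (SD 5.85) CPM, with a log2 fold change of 0.12 (95% interval -0.11 to 0.35). RRAGD was at 23.9, 31.0 and 24.5 CPM in mQ and 37.3, 34.2 and 33.7 CPM in pQ. These libraries did not overlap, yet the log2 fold change of -0.35 did not pass (adjusted p = 0.107 by edgeR), except without mQ replicate 2 (-0.48, adjusted p = 0.019 by edgeR).

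In the TCHX arm at 0 h, DDIT4 alone among the 8 members passed (log2 fold change 2.91), against 6.47% of all genes, and SESN2_1 was at 3.34. Without pQ replicate 3, the library with CD3E and PTPRC, DDIT4 was at 3.12 and FNIP2 passed at -0.49, against 20.1% of all genes. SESN1 was then at -0.55 (adjusted p = 0.170 by edgeR).

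**Figure D2:**
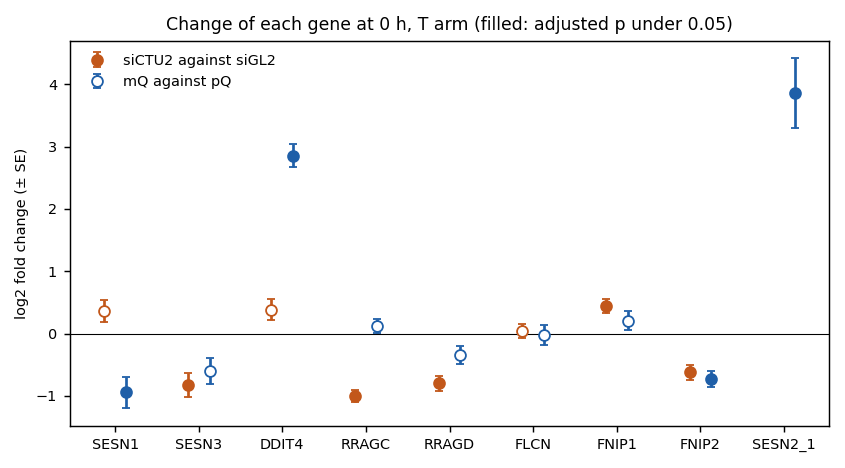
Log2 fold change at 0 h in the T arm for siCTU2 against siGL2 and for mQ against pQ. Whiskers are ± 1 SE from edgeR on 6 libraries, filled points passed an adjusted p of 0.05, and SESN2_1 is the extra-copy row of SESN2, tested only for the media. DDIT4 stands at 2.85 in mQ, and FNIP2 is below 0 in both comparisons.

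Side by side, FNIP2 fell in both experiments, while RRAGC and RRAGD passed with siCTU2 and DDIT4 passed without glutamine. Of all genes tested, 18.2% were called downward with siCTU2 and 12.4% without glutamine, and the share called in both was not counted. The experiments share no libraries, but their same-numbered libraries share a code of unstated meaning. Differences between the experiments were not tested. Among the other lists, the regulators held the largest changes without glutamine: 4 of 8 rose and none fell. ATF4 was at 1345 ± 181 CPM in mQ and 228 ± 16.4 in pQ (log2 fold change 2.61), and DDIT3, the stress factor CHOP, at 225 ± 46.5 and 26.3 ± 1.08 (3.16). Of the 8 Ragulator and other Rag genes, none rose and 2 fell, LAMTOR3 (-0.66) and LAMTOR1 (-0.30). Of the 15 GATOR and KICSTOR genes, 1 rose and 2 fell, CASTOR2, a paralogue of an arginine sensor (-1.33), and SEH1L, a GATOR2 subunit (-1.07). In the mTORC1 core and TSC list, 4 of 9 rose and 1 fell, with TBC1D7 at 0.68 and TSC2 at 0.61. Of 8 substrates, 3 rose and 1 fell, with EIF4EBP1, the translation inhibitor 4E-BP1, and GRB10 each at 0.74. Of 16 lysosome genes and regulators tested, 3 rose and 2 fell, with MITF at -1.16 and the protease CTSD at 0.72. The adjusted p of the named genes lay between 2.68e-07 for ATF4 and 0.0444 for LAMTOR1 by edgeR. The lists' medians were 0.49 for the regulators and, for the others in the order given, -0.04, -0.07, 0.32, 0.15 and -0.01, against 0.01 for all genes, of which 24.8% were called. TBC1D7 and GRB10 fell in siCTU2 and rose in mQ.

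The next comparison followed the loss of each mRNA in the T arm, once triptolide had stopped new synthesis. Counts were scaled to stable genes, those whose CPM rose by 3 or 5 h in every arm and replicate of the experiment, since library totals cannot serve after a block, and every loss is relative to them. DDIT4 had the largest loss of the members in all 4 conditions, and RRAGD the smallest value, though differences between members were not tested. At 3 h, 6 of 8 members had fallen in siCTU2 (all genes, 37.2% called, 36% downward), 5 in siGL2 (29.7%, 28.6% downward), 7 in mQ (56.5%, 55.4% downward) and 7 in pQ (56.3%, 55.2% downward). The members' median log2 change was -1.04 in siCTU2, -0.60 in siGL2, -1.15 in mQ and -1.07 in pQ, against -0.55, -0.47, -0.71 and -0.69 for all genes. TMM scaling holds the median gene at about 0, and under it the members' medians were -0.49, -0.12, -0.42 and -0.37 in the same order. The members still called were then DDIT4 in all 4 conditions, FNIP2 in siCTU2 and pQ, and FNIP1 in mQ. All genes called under TMM scaling numbered 1280 in siCTU2, 1259 in siGL2, 981 in mQ and 1243 in pQ.

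DDIT4 had 3.05, 2.36 and 2.32% of its 0 h level left at 3 h in siGL2, 2.51, 3.11 and 2.90% in pQ, and 2.13, 2.23 and 1.80% in mQ. In siCTU2, 4.51, 9.16 and 10.8% were left, more than in any library of the other conditions. These percentages rest on few counts per library, 11 to 17 in siGL2, 14 to 19 in pQ, 61 to 81 in mQ and 41 to 125 in siCTU2. The log2 changes were -5.26 (SE 0.36) in siGL2, -5.13 (SE 0.35) in pQ, -5.61 (SE 0.77) in mQ and -3.61 (SE 0.45) in siCTU2, each past the threshold by edgeR. In mQ, where DDIT4 started 7.21-fold higher, the log2 change minus that in pQ was -0.48 (SE 0.88, 95% interval -2.20 to 1.24), which did not pass, an interval wide enough to hold a faster or a slower loss. At 5 h this difference was 2.90 (SE 1.04, adjusted p = 0.297 by edgeR, 0% of all genes passing) with the mQ library that holds CD3E and PTPRC, and 0.21 (SE 0.49, adjusted p = 0.885 by edgeR, 0.621% passing) without it. With replicate 3 at 5 h left out in both conditions it was 1.06 (SE 0.76, adjusted p = 0.545 by edgeR, 0.843% passing).

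The difference between siCTU2 and siGL2 was 1.65 (SE 0.60, 95% interval 0.48 to 2.82). It had an unadjusted p of 0.00958 and an adjusted p of 1.00 by edgeR, and none of 14259 genes passed that test, with 414 below an unadjusted 0.05. DESeq2 called 8 genes. At 5 h, DDIT4 had 3.46, 6.76 and 5.47% left in siCTU2 (27 to 73 counts per library) and 0.755, 1.21 and 1.60% in siGL2 (only 4 to 13 counts per library). The difference was 2.08 (SE 0.64, adjusted p = 0.266 by edgeR), where 0.147% of all genes passed, and with the siCTU2 TCHX library that holds CD3E and PTPRC left out of the fit it was 2.08 (SE 0.51, adjusted p = 0.0357 by edgeR), where 1.07% of all genes passed. DDIT4 was the single member called there. With replicate 3 at 5 h left out in both conditions, the difference of DDIT4 was 2.37 (SE 0.63, adjusted p = 0.0308 by edgeR), where 2.34% of all genes passed, and RRAGC was also called (-0.86, SE 0.21, adjusted p = 0.0194 by edgeR).

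The other members had smaller losses. SESN1 fell by 1.41 on the log2 scale in siCTU2 (SE 0.42), by 1.71 in pQ (SE 0.36) and by 1.28 in mQ (SE 0.51), while its value in siGL2, -0.44 (SE 0.31), did not pass at 3 h and was -1.25 (SE 0.32) at 5 h, where it passed, with 48.5% of all genes. In mQ at 5 h SESN1 was at -0.99 (adjusted p = 0.113), and it passed without the library that holds CD3E and PTPRC (-1.96, adjusted p = 0.00185 by edgeR). Its call was lost in siCTU2 without replicate 1 or 2 (adjusted p = 0.113 and 0.0788) and in mQ without replicate 2 or 3 (0.202 and 0.103 by edgeR). In siGL2 the libraries spread widely, with 95.5, 77.6 and 47.1% left at 3 h. SESN3 had 47.8 to 84.4% left over the 12 libraries at 3 h. It passed in mQ (-0.70, SE 0.26), and its adjusted p was 0.0577, 0.0592 and 0.0622 in siCTU2, siGL2 and pQ by edgeR. In mQ it did not pass without replicate 1 or 2 (adjusted p = 0.107 and 0.186) or with all genes kept (0.144 by edgeR), and in siGL2 it passed without replicate 3 (-0.48, adjusted p = 0.0361 by edgeR). With the replicate as a block SESN3 passed in siCTU2 (-0.68, adjusted p = 0.0092) and in pQ (-0.55, adjusted p = 0.0328 by edgeR), where same-numbered libraries deviated together. It also passed in siCTU2 with the library that holds CD3E and PTPRC left out of the fit (-0.72, adjusted p = 0.0417 by edgeR). The call of SESN3 in mQ was not seen at 5 h, where it was at -0.11 (adjusted p = 0.741), or at -0.32 without the library that holds CD3E and PTPRC (adjusted p = 0.290 by edgeR). RRAGD had 61.3 to 91.4% left over the 12 libraries and passed in pQ (-0.55, SE 0.17), though not without replicate 1 or 2 (adjusted p = 0.104 and 0.0867) or with all genes kept (0.0558 by edgeR). In mQ it passed with the 5 h library that holds CD3E and PTPRC left out (-0.48, adjusted p = 0.0389 by edgeR). With replicate 3 at 5 h left out of the fits at 3 h, SESN3 passed in siCTU2 (-0.72, adjusted p = 0.0130), siGL2 (-0.47, adjusted p = 0.0179) and pQ (-0.55, adjusted p = 0.0231 by edgeR), and RRAGD in mQ (-0.48, adjusted p = 0.0213 by edgeR). Members called then numbered 7, 6, 8 and 8 in siCTU2, siGL2, mQ and pQ, against 60.6, 55.8, 68.2 and 69.8% of all genes in that order. Under TMM scaling, RRAGD was above 0 in all conditions and SESN3 in siGL2, mQ and pQ.

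RRAGC had 42.7, 50.1 and 37.7% left at 3 h in siCTU2 and 69.6, 69.1 and 65.0% in siGL2, and the libraries of the 2 groups did not overlap. Its log2 change was -1.20 (SE 0.25) in siCTU2 and -0.56 (SE 0.17) in siGL2, and the difference of -0.65 (SE 0.30) had an unadjusted p of 0.0424 and an adjusted p of 1.00 by edgeR. In mQ it was -1.04 (SE 0.19) and in pQ -0.77 (SE 0.14). FNIP2 fell by 1.34 in siCTU2 (SE 0.29) and by 0.68 in siGL2 (SE 0.21). It also fell by 1.26 in mQ (SE 0.32) and by 1.35 in pQ (SE 0.17). FNIP1 fell by 0.87 in siCTU2 (SE 0.15), by 0.74 in siGL2 (SE 0.16), by 1.70 in mQ (SE 0.30) and by 1.14 in pQ (SE 0.20). Its libraries had 28.6, 29.9 and 33.9% left in mQ and 42.4, 51.0 and 42.6% in pQ, without overlap, and the difference of -0.56 (SE 0.36) did not pass. FLCN fell by 0.61 in siCTU2 (SE 0.16) and 0.63 in siGL2 (SE 0.16), and by 0.88 in mQ (SE 0.22) and 1.00 in pQ (SE 0.19). Calls lost without 1 library were, in siCTU2, FLCN (adjusted p = 0.223) and FNIP2 (0.0818) without replicate 1, and in mQ FNIP2 without replicate 1 or 2 (0.0508 and 0.069 by edgeR). In siGL2 they were RRAGC (adjusted p = 0.221 and 0.128), FLCN (0.138 and 0.0758) and FNIP2 (0.0687 and 0.165) without replicate 1 or 2, and FNIP1 without replicate 1 (0.0602 by edgeR). No member's loss differed between conditions past the adjusted threshold at 3 h. In the comparison of media, 0 of 14177 genes passed, with 356 below an unadjusted 0.05 and 2 called by DESeq2.

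**Figure D3:**
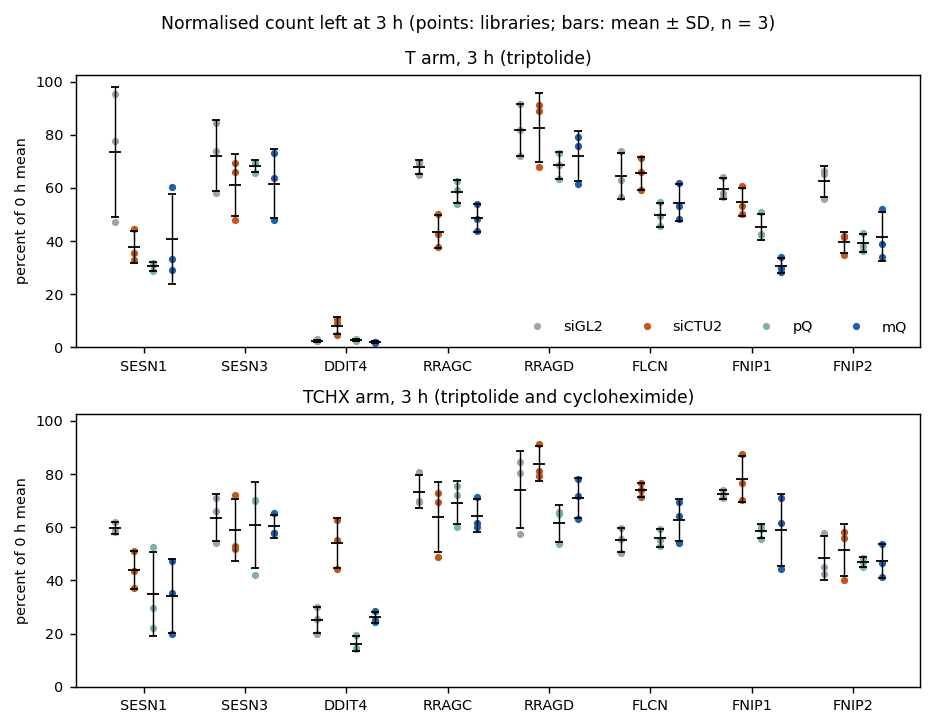
Normalised count left at 3 h, as a percentage of the mean 0 h level of the same arm, for the 8 members tested. Points are libraries and bars the mean ± SD of 3; the upper panel is triptolide alone and the lower panel adds cycloheximide. DDIT4 is near the bottom of the upper panel, at 1.80 to 10.8%, and at 14.3 to 62.8% in the lower one. For pQ in the lower panel, the 0 h mean includes the library with CD3E and PTPRC.

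Cycloheximide was then compared with triptolide alone at 3 h, which asks whether an mRNA is kept when translation is stopped. DDIT4 was higher with cycloheximide in all 4 conditions. It was the single member called in siGL2, mQ and pQ, and FNIP1 was also called in siCTU2. Of all genes, 3.5% passed in siGL2 (3.44% upward), 0.342% in mQ (all upward), 2.85% in pQ (2.81% upward) and 4.33% in siCTU2 (4.31% upward). The members' median was -0.17, 0.29, -0.04 and 0.20 in that order, against 0.04, 0.16, 0.05 and 0.13 for all genes. In mQ, leaving the 5 h library with CD3E and PTPRC out of the fit took the calls from 46 to 1496 genes and added FNIP1, and leaving replicate 3 at 5 h out of both arms did the same with 15.5% of all genes. These comparisons share the T libraries at 3 h with the losses above.

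For DDIT4 the log2 fold change, TCHX against T at 3 h, was 3.41 in siGL2 (SE 0.35, adjusted p = 2.73e-05 by edgeR), a 10.6-fold difference. It was 2.35 in siCTU2 (SE 0.44, adjusted p = 0.00369 by edgeR), 2.54 in pQ (SE 0.34, adjusted p = 0.000215 by edgeR) and 3.93 in mQ (SE 0.72, adjusted p = 0.0298 by edgeR). With cycloheximide, 44.3, 62.8 and 55.3% of DDIT4 was left in siCTU2 and 19.98, 29.93 and 25.59% in siGL2. In mQ, 25.2, 28.6 and 24.5% was left, and in pQ 14.7, 19.4 and 14.3%. The pQ percentages refer to a 0 h mean that includes the library with CD3E and PTPRC, the one with the most DDIT4 of its group (54.1 CPM, group mean 43.2). Every TCHX library was above every T library of its condition. The call was lost in single leave-one-out fits, which hold 2 libraries a group: in siCTU2 without replicate 1 or 2 (adjusted p = 0.117 and 0.125), in mQ without replicate 1 or 2 (0.332 and 0.693) and in pQ without replicate 2 (0.0646 by edgeR), while the log2 fold change stayed between 2.18 and 3.98 there. With the 0 h difference of the arms subtracted, it was lost in mQ (3.67, adjusted p = 0.577 by edgeR).

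At 5 h less DDIT4 was left with cycloheximide. In siGL2, DDIT4 had 3.70, 6.87 and 2.09% left with cycloheximide, and in pQ 2.08, 4.68 and 4.94%. The log2 fold change, TCHX against T, was 1.89 in siGL2 (SE 0.40, with 9.98% of all genes called) and 2.62 in pQ (SE 0.47, with 10.2% called), and both passed. Both rest on low counts of DDIT4, 4 to 13 per T library in siGL2 and 2 to 6 in pQ. The TCHX libraries held 11 to 39 and 15 to 35. In mQ, the T arm had 0.521, 0.943 and 12.5% left at 5 h, the last being the library with CD3E and PTPRC (44.7 CPM, against 2.10 and 3.83), and the TCHX arm had 4.20, 6.01 and 5.82%. The log2 fold change in mQ was 0.41 (adjusted p = 0.775 by edgeR) with that library, where 0.231% of all genes passed, and 3.10 (SE 0.28, adjusted p = 5.40e-07 by edgeR) without it, where 16.5% passed. In siCTU2, the TCHX arm had 18.3, 18.7 and 64.8% left, the last being the library with CTU2 at 10.4 CPM, above its group but below siGL2. The log2 fold change was 2.30 (SE 0.45) with that library and 1.43 (SE 0.34, adjusted p = 0.00901 by edgeR) without it. With replicate 3 at 5 h left out of both arms, DDIT4 passed in all 4 conditions, at 2.46 in siGL2, 3.28 in pQ, 3.03 in mQ and 1.44 in siCTU2. All genes called in these fits numbered 1923 of 13472 in siGL2, 1356 of 13820 in pQ, 2494 of 13731 in mQ and 1962 of 13941 in siCTU2.

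**Figure D4:**
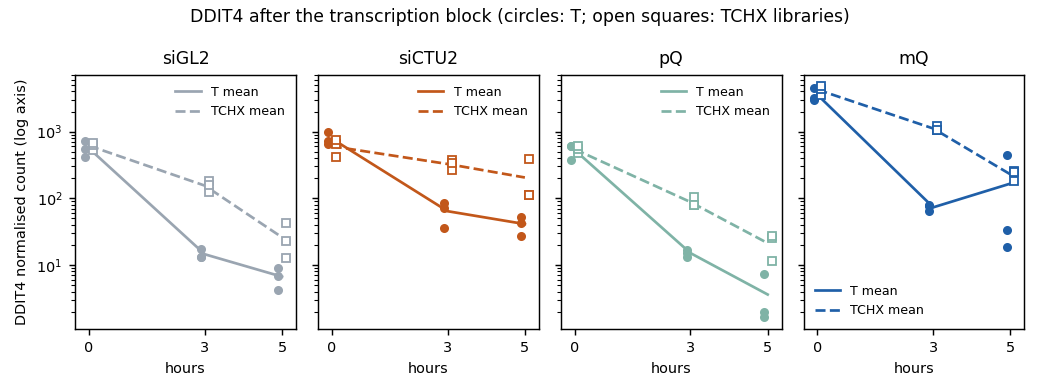
DDIT4 normalised counts on a log axis against hours of treatment, for each condition. Circles and solid lines are the T arm, open squares and dashed lines the TCHX arm, and lines join means of 3 libraries. The T arm lies below the TCHX arm at 3 h in all 4 panels, and the mQ mean at 5 h is raised by 1 library at 12.5% of the 0 h level.

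FNIP1 was the other member that passed with cycloheximide. In siCTU2, 76.5, 87.7 and 70.3% was left in the TCHX arm at 3 h against 53.3, 60.7 and 50.4% in the T arm, without overlap. The log2 fold change was 0.52 (SE 0.15, adjusted p = 0.0492 by edgeR), just inside the threshold, and the call was lost when any replicate was left out (adjusted p = 0.0987 to 0.644 by edgeR). At 5 h FNIP1 passed in siCTU2 (0.91, SE 0.15, adjusted p = 0.000271) and in siGL2 (0.67, SE 0.16, adjusted p = 0.0106 by edgeR), where 19.4% and 9.98% of all genes passed. RRAGC also passed in siCTU2 at 5 h (1.00, SE 0.25). Without the library with CD3E and PTPRC, 12.9% of all genes passed in siCTU2. FNIP1 was then at 0.94 (adjusted p = 0.000702), RRAGC did not pass, and SESN1 passed downward (-1.46, adjusted p = 0.00509 by edgeR). SESN1 had 9 to 74 counts per library in that TCHX group, the 74 being in the library left out, so its value rests on few counts. With replicate 3 at 5 h left out of both arms, SESN1 in siCTU2 was at -1.41 (adjusted p = 0.00783 by edgeR) and FNIP1 at 0.93 in siCTU2 and 0.80 in siGL2, each past the threshold. RRAGC passed then in mQ (0.56, adjusted p = 0.0159) but not in siCTU2 (0.47, adjusted p = 0.149 by edgeR). All genes called in these fits numbered 1962 in siCTU2, 1923 in siGL2 and 2494 in mQ. At 3 h the values of FNIP1 in siGL2 (0.37), mQ (0.89) and pQ (0.35) did not pass. In mQ it passed with the 5 h library that holds CD3E and PTPRC left out (adjusted p = 0.00864), without replicate 3 (0.0274) or with all genes kept (0.0277 by edgeR). None of the other 6 members tested passed at 3 h.

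**Figure D5:**
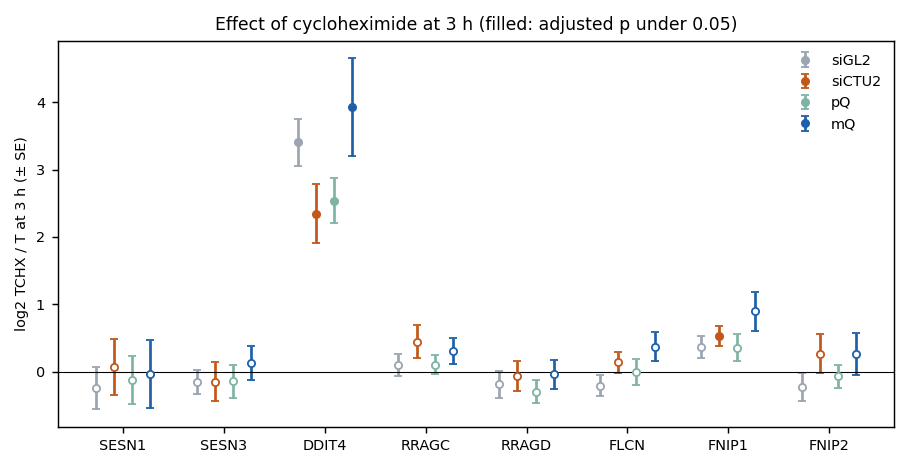
Log2 fold change of TCHX against T at 3 h for the 8 members tested in each condition, with whiskers of ± 1 SE from edgeR. Filled points passed an adjusted p of 0.05. DDIT4 lies between 2.35 and 3.93 and is filled in all 4 conditions, and FNIP1 is filled in siCTU2.

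The translation-dependent decay (TDD) index, the TCHX minus the T level at one time divided by the 0 h level, put these effects on a linear scale. The index of DDIT4, over 3 and 5 h, was 0.302 ± 0.154 in siCTU2 and 0.137 ± 0.117 in siGL2 (SD of 6 values from 3 replicates). The difference was 0.165 (SE 0.06, unadjusted p = 0.0306, adjusted p = 0.569 in a linear model over all genes). The index of FLCN was 0.108 ± 0.0608 in siCTU2 and -0.062 ± 0.0634 in siGL2, and all 6 siCTU2 values were above all 6 siGL2 values. The 3 h and 5 h values of a replicate share its 0 h level, so the 6 values are not independent. The linear model has no term for this sharing within a condition. The difference of FLCN was 0.170 (SE 0.02, unadjusted p = 0.000119, adjusted p = 0.163 in the linear model over all genes). These were 2 of 8 members at an unadjusted p of at most 0.05, the study's rule, against 8.16% of 12288 genes. The members' median difference was 0.14, against 0.07 for all genes. No gene passed after adjustment, with 1003 at an unadjusted 0.05 or below, and the edgeR interaction called 54 genes and 0 members. Upward calls were 7.28% of all genes. The call of DDIT4 was lost without replicate 1 (difference 0.173) or replicate 2 (0.195), and the edgeR interaction, on a log scale, put DDIT4 at -0.32. Without the 5 h value that uses the siCTU2 TCHX library with CD3E and PTPRC, DDIT4 differed by 0.110 (unadjusted p = 0.0118) and FLCN by 0.163 (unadjusted p = 0.000529 in the linear model over all genes), where 7.67% of all genes passed. Without replicate 3 at 5 h in either condition they differed by 0.117 and 0.164 and both passed, against 7.38% of all genes. Between the media, DDIT4 differed by 0.06 (unadjusted p = 0.0835) and FLCN by 0.01 in the linear model over all genes, and no member passed, against 4.79% of 12428 genes. That result rests on replicate 3. Without its values at 5 h, DDIT4 (0.0884, unadjusted p = 0.0170), RRAGC (0.102, unadjusted p = 0.0379) and FNIP1 (0.111, unadjusted p = 0.0261 in the linear model over all genes) were higher in mQ past the unadjusted rule, against 13.6% of all genes. Without the values that use a library with CD3E and PTPRC, FNIP2 alone passed (0.164, unadjusted p = 0.00628, adjusted p = 0.290 in the linear model over all genes), against 12.9%, and its difference with all values was 0.0134. With all values no gene passed after adjustment, with 595 at an unadjusted 0.05 or below and 0 by the edgeR interaction.

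Over the 24 group means of log2(CPM + 1), the members did not share 1 pattern. The highest Pearson r between members was 0.866, for SESN1 and FNIP2, and DDIT4 and FLCN had 0.783, while DDIT4 and RRAGD had -0.464. These groups share conditions and the effect of triptolide on every library, so r is a description. Among 9662 other genes with a mean of at least 5 CPM, those closest to DDIT4 were ZFP62 (0.967) and BBC3 (0.96), those closest to RRAGC were DTX3L (0.987) and PLEKHA3 (0.986), and those closest to RRAGD were ORAI2 (0.969) and FXYD3 (0.952). SESN1 was closest to RNF145 (0.903) and STX3 (0.899), SESN3 to PHTF2 (0.959) and NSFL1C (0.947), and FLCN to RALGAPB (0.951) and PSMC3IP (0.934). FNIP1 was closest to LRIF1 (0.957) and ARID5B (0.956), and FNIP2 to SH2B3 (0.935) and STX3 (0.928). SESN2, at a mean below 5 CPM, was not compared.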

How the data were processed

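QuantSeq counts of 72 libraries were used. The authors trimmed reads with fastp 0.20.1, mapped them to GRCh38.p13 with HISAT2 2.2.1 and made raw counts per gene with HTSeq 0.13.5, and the deposited table holds these counts. All sample columns matched a title. The table had 5084 extra-copy names, each kept as its own row. Counts were analysed in R 4.3.3 with edgeR 4.0.16 (filterByExpr, quasi-likelihood F-test, Benjamini-Hochberg adjustment over all genes tested, threshold 0.05). At 0 h, TMM scaling and 6 libraries were used. Changes over time used the 18 libraries of a condition, or 36 for differences between conditions, scaled by the median of ratios over 197 (siRNA) or 81 (medium) stable genes. The TDD index kept genes with at least 10 normalised counts at 0 h and was fitted per gene by least squares on condition, replicate and time (a linear model, with unadjusted p of at most 0.05 as the study's rule). Standard errors were taken from the log2 fold change and the F statistic, and 95% intervals from them by the normal quantile. Alternatives were DESeq2 1.42.0, other scalings, all genes kept, 5 h, the TCHX arm, the replicate block and each library left out. Values without the libraries that hold CD3E and PTPRC at 5 h or in the TCHX arm, without replicate 3 at 5 h, and with extra-copy rows added, were chosen after seeing the data. The scripts were tested on simulated data. No pair of replicates agreed within sampling noise.

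The members, lists and tests were chosen with earlier results of these data known. All 9 members are named, with at most 2 genes past the threshold per pathway list at 0 h and the 2 genes most like each member, apart from 1 gene that is not reported here. Replicate numbers come from the titles. Same-numbered libraries of all groups also share a code in the descriptions, but the labels do not say what number or code marks. Deviations of same-numbered libraries correlated above 0.1 in every pair for the losses in siCTU2 and pQ and for cycloheximide in siCTU2, mQ and pQ, but not for either main 0 h comparison.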

Additional observations from a re-analysis of the deposited data

Results flagged for a closer look

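In the siRNA experiment, the TDD index of DDIT4 was 0.165 higher in siCTU2 than in siGL2 (unadjusted p = 0.0306), and that of FLCN was 0.170 higher (unadjusted p = 0.000119, in the linear model over all genes). Both stand here because the difference between conditions passed the unadjusted rule, and neither passed after adjustment (adjusted p = 0.569 and 0.163). Of 12288 genes, 8.16% passed the unadjusted rule, and the median difference was 0.07 for all genes. The call of DDIT4 was lost without replicate 1 or 2, and the edgeR interaction, on a log scale, put DDIT4 at -0.32. Both genes still passed the unadjusted rule without the 5 h value that uses the library with CD3E and PTPRC (0.110 and 0.163), where 7.67% of all genes passed. Both values with all libraries include replicate 3 of siCTU2 TCHX at 5 h, the library with CTU2 at 10.4 CPM, above its group but below siGL2. Its DDIT4 index was 0.407 at 5 h, against 0.147 and 0.0916 in replicates 1 and 2, and its FLCN index was 0.191, against 0.170 and 0.0903. The 3 h and 5 h values of each replicate share its 0 h level, so these p-values rest on values that are not independent.

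SESN2_1, the row of the extra copy of SESN2, lies outside the 9 rows of the members and was higher in mQ than in pQ at 0 h, with a log2 fold change of 3.86 (adjusted p = 0.000803 by edgeR). Summed over all libraries, it held 511 counts, against 68 in the row SESN2. Which reads the authors' counting sent to each row was not tested.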

How the results depend on the processing

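The 5 calls of siCTU2 at 0 h became 5 to 6 when 1 library was left out, and the 3 calls of mQ 2 to 5. All genes called in mQ then went from 3071 to as few as 1476, without pQ replicate 2. In the TCHX arm, the mQ calls numbered 1, with 6.47% of all genes called. Under TMM scaling, members called for loss at 3 h went from 6 to 2 in siCTU2, from 5 to 1 in siGL2, and from 7 to 2 in both mQ and pQ, since TMM sets the median gene to about 0. All genes called moved likewise, from 5069 to 1280, 3904 to 1259, 7599 to 981 and 7510 to 1243 in that order. With genes stable at both times siGL2 had 8 calls, where 8375 genes were called, and with all genes kept 3. Leaving out 1 replicate gave 3 to 6 calls in siCTU2, 1 to 6 in siGL2, 4 to 6 in mQ and 6 to 7 in pQ. All genes called were then as few as 1182 in siCTU2, 1277 in siGL2, 2047 in mQ and 3272 in pQ. In siGL2 they rose to 6171 without replicate 3, against 3904 with all libraries. For cycloheximide at 3 h, siCTU2 went from 2 calls to 1 under TMM scaling, with genes stable at both times, with all genes kept and with the 0 h difference subtracted, and to 0 to 1 without 1 replicate. All genes called went from 590 to 219 with genes stable at both times, to 169 with that subtraction, and to 25 without replicate 1. In siGL2, 5 h gave 2 calls, with 9.98% of all genes called. In mQ (1 call), 5 h and the 0 h difference subtracted gave 0, all genes kept and the libraries with CD3E and PTPRC left out each gave 2, and leaving out 1 replicate 0 to 2. All genes called there went from 46 to 31 at 5 h and to 0 with that subtraction. They rose to 995 with all genes kept and to 1496 without those libraries, and were 0 to 1669 without 1 replicate. In pQ (1 call), leaving out 1 replicate gave 0 to 1, with 58 to 667 genes called against 380. The loss differences had 0 calls, and 1 between siRNAs at 5 h with the libraries with CD3E and PTPRC left out, where 1.07% of all genes passed. The TDD index between siRNAs (2 calls) had 5 with each arm over its own 0 h library, 0 by the edgeR interaction and 1 to 2 without 1 replicate, and between media (0 calls) 0 to 1, with 1 when values from libraries with CD3E and PTPRC were left out. All genes called between siRNAs were 1003, then 2208 with own 0 h libraries, 54 by the interaction and 480 without replicate 1. Between media they went from 595 to 1602 when those values were left out. With replicate 3 at 5 h left out, the calls at 5 h were 8 for loss in siGL2, 2 for cycloheximide in siGL2 and in mQ, and 2 for the loss difference between siRNAs, those for cycloheximide at 3 h in mQ were 2, and those of the TDD index between media 3. All genes called numbered 6974, 1923, 2494, 340, 2134 and 1687 in that order.

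Values that changed sign follow. None was past the threshold after the change except SESN1 in siCTU2 at 5 h, which rests on few counts. At 0 h in the TCHX arm, DDIT4 of siCTU2 was -0.020, and FLCN of mQ was 0.19, or 0.12 without pQ replicate 3. Under TMM scaling, the loss of RRAGD was 0.27 in siCTU2, 0.19 in siGL2, 0.25 in mQ and 0.15 in pQ, that of SESN3 0.0094 in siGL2, 0.013 in mQ and 0.14 in pQ, and that of SESN1 0.025 in siGL2. TMM also gave cycloheximide values of -0.051 for SESN3 in mQ and -0.060 for SESN1 in siCTU2, and a TDD difference of -0.078 for RRAGD between siRNAs. With genes stable at both times, cycloheximide values in mQ were 0.015 for RRAGD and 0.086 for SESN1. With the 0 h difference subtracted, they were -0.030 for SESN3 in mQ, 0.17 for FLCN, 0.26 for FNIP2 and 0.20 for SESN1 in pQ, and 0.023 for RRAGD in siCTU2. At 5 h they were -0.13 for FLCN, -0.69 for FNIP2 and -0.60 for SESN3 in mQ, 0.35 for FLCN and 0.058 for SESN3 in pQ, 0.17 for RRAGD and -0.28 for SESN1 in siCTU2, and 0.041 for RRAGD in siGL2. With the libraries with CD3E and PTPRC left out, they were 0.060 for RRAGD and -0.38 for SESN3 in mQ, and -1.46 for SESN1 in siCTU2. The loss difference at 5 h between media was 2.90 for DDIT4, 0.069 for FNIP1, 1.03 for SESN2_1 and 0.36 for SESN3, and between siRNAs -0.00073 for FLCN. With those libraries left out it was 0.21 for DDIT4, -0.11 for FNIP2, -0.20 for RRAGD and 0.15 for SESN3 between media, and -0.00050 for FLCN between siRNAs. With replicate 3 left out at 5 h, cycloheximide values were -1.41 for SESN1 and -0.19 for FNIP2 in siCTU2, -0.26 for SESN3 and 0.13 for RRAGD in mQ, and 0.044 for SESN3, 0.033 for RRAGD and 0.27 for FLCN in pQ. The loss difference was then -0.054 for RRAGD between siRNAs, and 0.37 for SESN3, 1.06 for DDIT4 and -0.27 for FNIP2 between media. TDD differences between media were 0.037 for SESN1 and 0.025 for SESN3, and that of SESN1 was 0.025 without values from libraries with CD3E and PTPRC. By the edgeR interaction, on a log scale, DDIT4 was at -0.32 between siRNAs and -0.41 between media, FLCN at -0.049 and FNIP2 at -0.027 between media. With each arm over its own 0 h library, FLCN was at -0.12 and FNIP2 at -0.10 there.

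Leaving out 1 library or replicate crossed 0 for FLCN at 0 h, from -0.0089 to 0.10 in siCTU2 and from -0.18 to 0.073 in mQ. Among cycloheximide values it did so for RRAGD (-0.078 to 0.023) and SESN1 (-0.51 to 0.63) in mQ, for FLCN (-0.066 to 0.096), SESN1 (-0.54 to 0.075) and SESN3 (-0.25 to 0.032) in pQ, and for RRAGD (-0.17 to 0.048) and SESN1 (-0.089 to 0.21) in siCTU2. Among loss differences it did so between siRNAs for FLCN (-0.057 to 0.094) and RRAGD (-0.22 to 0.17), and between media for FLCN (-0.16 to 0.34), FNIP2 (-0.068 to 0.19), RRAGD (-0.13 to 0.20), SESN1 (-0.095 to 0.77) and SESN2_1 (-2.21 to 2.13). Among TDD differences it did so between siRNAs for RRAGD (-0.018 to 0.10) and SESN3 (-0.0027 to 0.13), and between media for FLCN (-0.0030 to 0.021), FNIP2 (-0.072 to 0.16), RRAGC (-0.029 to 0.094) and SESN1 (-0.23 to 0.025). Apart from the constructions named, the cause of these changes was not tested.

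With the replicate as a block, members called numbered 6 in siCTU2 and 3 in mQ at 0 h, 7, 6, 6 and 8 for loss in siCTU2, siGL2, mQ and pQ, and 2, 1, 1 and 1 for cycloheximide in siCTU2, siGL2, mQ and pQ. All genes called rose from 380 to 652 for cycloheximide in pQ and from 46 to 138 in mQ. In the other fits just named they changed by at most 1.5-fold. The block brought DDIT4 of siCTU2 at 0 h (0.39, adjusted p = 0.00381) and the loss of SESN3 in siGL2 (-0.47, adjusted p = 0.0304) past the threshold and took that of SESN1 in mQ out (-1.20, adjusted p = 0.0508 by edgeR), in comparisons where same-numbered libraries share a number and a code of unstated meaning but did not deviate together in every pair. With the 2 calls of SESN3 given above, it changed no other member's call. Without the block the TDD calls were 2 and 0. Genes called with cycloheximide in mQ numbered 46, and 138 with the block, 564 by DESeq2, 995 with all genes kept and 1496 without the library with CD3E and PTPRC. Genes called at 0 h in mQ numbered 3071, and 810 in the TCHX arm. Of 1402 recomputed member values, 1180 kept their direction and side of the threshold, 62 came past it, 69 lost it and 91 changed sign. SESN2, at 0 counts in 54 libraries, is limited by depth.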
